A study of Mus musculus with 16 samples.

Results

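Epithelial cells are held together by tight junctions, adherens junctions and desmosomes, and their shape is kept by keratin filaments that end at the desmosomes. Tight junctions are built from claudins, occludin and the ZO scaffold proteins. Adherens junctions are built around E-cadherin, and desmosomes around desmosomal cadherins linked to keratin by plakoglobin, plakophilins and desmoplakin. In the mammary gland, luminal cells carry E-cadherin, Epcam, Krt8, Krt18 and Krt19, and tumor cells that take on mesenchymal features can lose this set of genes.

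A list of 41 mouse genes of this kind, taken by symbol and matched to Ensembl gene IDs, was described out of 33072 genes in the count table. It held the adhesion genes Cdh1 and Epcam, 5 keratins, 6 claudins, 7 other tight junction genes, 3 polarity and trafficking genes, 8 desmosome genes, 3 plakin and anchoring genes, 5 membrane proteases or inhibitors and the transcription factors Elf3 and Ehf. RNA sequencing was done on the mouse mammary carcinoma lines 4T1, which is metastatic, and 67NR, which is non-metastatic. Both are from a spontaneous tumor of BALB/c mice, are isogenic, and each is a single established line. Each was treated for 24 h in serum-containing medium with vehicle or with 15 µM CIX, an inhibitor of cytosolic phospholipase A2 alpha, the enzyme that releases arachidonic acid from membranes. The 4 groups were 4T1 vehicle, 4T1 CIX, 67NR vehicle and 67NR CIX, with 4 biological replicates each by the study's methods, named here by their sample numbers. The sample labels do not say that replicates came from separate cultures, so the p-values measure the spread between these samples. The study's methods name a type of flow cell and do not say whether all libraries shared a sequencing run.

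Total estimated counts were 21715700 to 29450629 per sample. A count of 3, taken as the detection floor, corresponded to 0.11 to 0.137 CPM, the count scaled to library size. No pair of replicates agreed within sampling noise. The 67NR vehicle sample 13 stood apart from its 3 replicates, with a chi-square per gene of 84.6 to 98 against 16.7 to 19.9 among the others. Over all genes, 45 were called for CIX in 67NR with it, 15 without it, and 0 to 70 without 1 of the other 67NR samples. The 4T1 CIX sample 4 stood apart less, at 60.0 to 89.7 against 25.2 to 42.4, and the largest value, 108, was between the 4T1 vehicle samples 3 and 11. The 8 luminal markers used to check the labels are all among the 41 genes, so they are no check outside the list. Their summed level was 2520.5 to 2671.6 TPM, a level scaled to transcript length and library size, in 4T1 vehicle. In 67NR vehicle it was 1.08 to 4.62 TPM. The 12 mesenchymal markers summed to 5701.8 to 6795.8 TPM in 67NR vehicle and to 1569.8 to 1937.2 TPM in 4T1 vehicle. Without Vim these sums were 2054.1 to 2208.2 and 551.5 to 843.0 TPM. Col1a1, Col1a2, Col3a1 and Thy1, also on that list, were at most 4.06 TPM in 67NR vehicle. The source label of both lines is mammary carcinoma, and the luminal markers Epcam, Krt18 and Cldn4 were at or near 0 in 67NR. Immune markers summed to at most 0.854 TPM and endothelial markers to at most 1.53 TPM in any sample.

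The first comparison asked how the lines differ at baseline in these genes. Most of the list was far lower in 67NR. Over the pooled vehicle samples 36 of the 41 genes stood below 5% of their 4T1 level, and in each 67NR vehicle sample 11 to 23 of the 41 had 3 counts or fewer. Cdh1, which encodes E-cadherin, had 477, 629, 670.0 and 599 CPM in the 4T1 vehicle samples and 0.238, 0.222, 0.906 and 0.428 CPM in the 67NR vehicle samples. Epcam, an epithelial adhesion molecule, had 317, 307, 313 and 311 CPM in 4T1 vehicle and 0.0, 0.0887, 0.315 and 0.0428 CPM in 67NR vehicle. The groups did not overlap for either gene. In ratios of pooled CPM, which use the summed counts of a group, Cdh1 was 1300-fold higher in 4T1 (95% interval of counting error 968 to 1789, from 44 counts in 67NR) and Epcam 2737-fold higher (1529 to 5483, from 11 counts). Such intervals cover counting error only.

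Of the 41 genes, 38 passed the filter of at least 1 TPM in 4 or more of the 8 vehicle samples. In limma-voom, 36 of these 38 were higher in 4T1 at an adjusted p below 0.001 and 0 were lower, while 23.7% of all 12530 tested genes were called higher and 22.8% lower. The count says little by itself, because 29 of the 38 had at least 1 TPM in no 67NR vehicle sample and entered the test only through 4T1, so they had to differ. Only Cldn12, Tjp1, Lsr and Pkp3 reached 1 TPM in all 4 67NR vehicle samples. Over all 41 genes the groups did not overlap for 39, with 38 higher and 1 lower in 4T1, against 65.5% of all tested genes with groups apart in either direction. The median ratio over the 41 genes was 365-fold, and 9 genes had a ratio of 1000 or more, 19 of 100 to 1000 and 8 of 10 to 100. The median log2 fold change of all tested genes was -0.018.

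**Figure D1:**
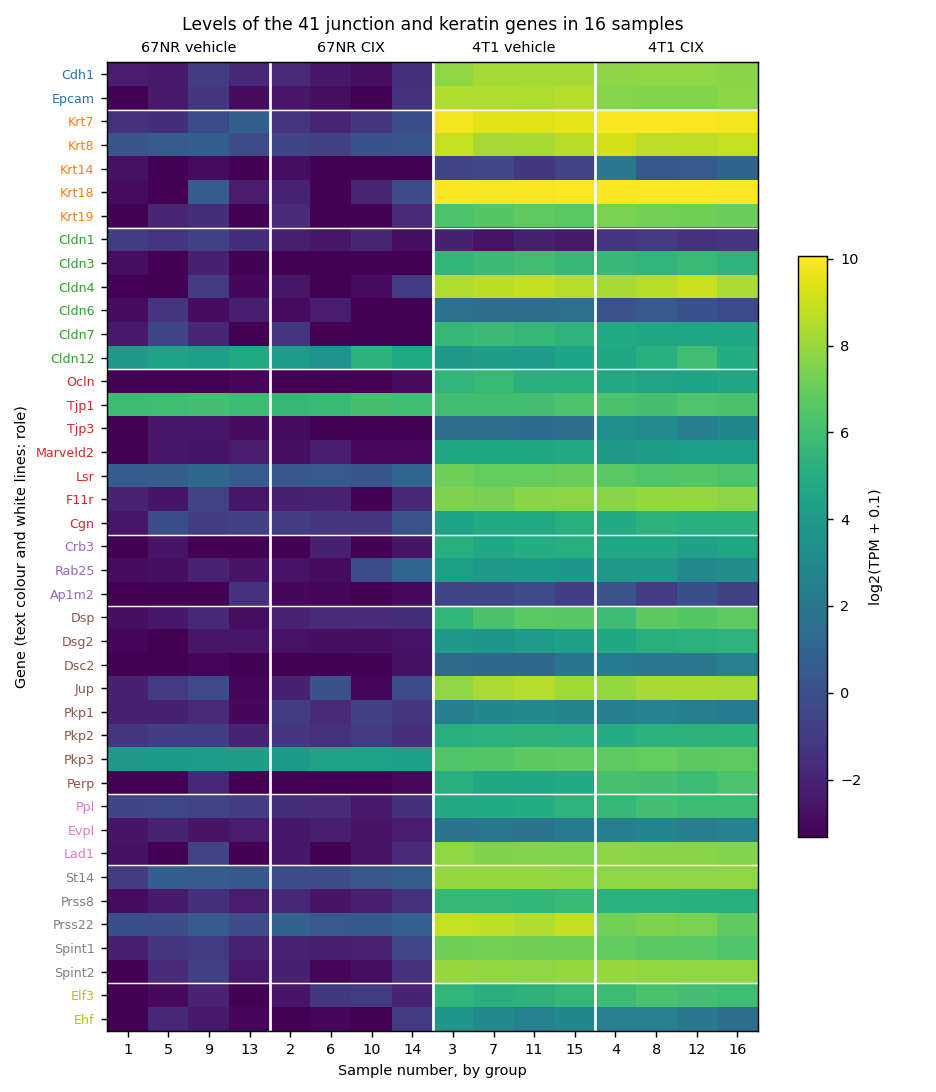
Levels of the 41 genes as log2(TPM + 0.1) in each of the 16 samples, with genes in rows grouped by role and samples in columns grouped by line and treatment. Most rows are dark in the 8 67NR samples and light in the 8 4T1 samples, and the rows of Cldn12, Tjp1 and Pkp3 are light in all 4 groups.

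The keratins differed widely in level in 4T1 vehicle. Krt18, the type I keratin of simple epithelia, had the highest level per length of the list, with a mean of 994 TPM in 4T1 vehicle, followed by Krt7 with 762 TPM. With the union of exons as the length Krt18 was still the highest, at 2032 TPM, while Krt7 was at 413 TPM, below Prss22, Cldn4 and Krt8. Krt18 had 1107, 998, 1116 and 1042 CPM in 4T1 vehicle and 0.0397, 0.0, 1.61 and 0.128 CPM in 67NR vehicle. Its type II partner Krt8 had 435 to 710.0 CPM in 4T1 vehicle and 1.2 to 2.28 CPM in 67NR vehicle, a ratio of 309 (266 to 361). Krt8 shares 32.3% of its 31-base sequence words with the pseudogene Krt8-ps, so reads may be split between them, though Krt8-ps had 0 counts in all 67NR samples. Krt7 had a ratio of 968 and Krt19 of 846. Krt14, a keratin of basal cells, was low in both lines, at 0.389 to 0.643 CPM in 4T1 vehicle and 2 counts in all in 67NR vehicle, and was not tested. It shares 28.2% of its words with Krt16.

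Claudins spanned the range from 0.255-fold to 3744-fold between the lines. Cldn4, a barrier claudin, had 489.5, 552, 661 and 477 CPM in 4T1 vehicle and 0.0, 0.0, 0.512 and 0.0428 CPM in 67NR vehicle, a ratio of 3744 (2231 to 6849). Of its 14 counts in 67NR vehicle, 13 were in sample 9, and without that sample the ratio was 38622 (6932 to 1525531, from 1 count). Cldn3, its neighbour on chromosome 5, had a ratio of 1193 and Cldn7 of 238. Cldn6, a claudin of embryonic epithelia, was low in 4T1, with 2.79 to 3.3 CPM, and its ratio was 23.9 (13.5 to 46.8). Cldn12, which lacks the scaffold-binding tail of most claudins, had 21.2 to 29.8 CPM in 4T1 vehicle and 22.9 to 46.0 CPM in 67NR vehicle. These ranges overlapped and the gene was not called (log2 fold change -0.34, limma adjusted p = 0.191). Cldn1 went the other way, with 0.371, 0.172, 0.346 and 0.241 CPM in 4T1 vehicle and 1.27, 0.931, 1.46 and 0.727 CPM in 67NR vehicle. Its groups did not overlap (2-sided exact permutation test, p = 0.0286, the smallest that 4 against 4 samples allow), but it was too low to enter the fit.

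Among the other tight junction genes, Ocln, which encodes occludin, was at 60.0 to 93.9 CPM in 4T1 vehicle, and a single count was found over the 4 67NR vehicle samples, for a ratio of 7236 with a counting interval of 1298 to 285851. Marveld2, which encodes tricellulin at the corners where cells meet, had a ratio of 351, and F11r, an adhesion molecule of the same junction, of 822. Lsr, which recruits tricellulin, was above the floor in all 67NR samples, at 2.05 to 2.99 CPM in vehicle, and had a ratio of 75.0 (65.7 to 85.8). Cgn, which encodes cingulin, had a ratio of 56.5, and 21.6% of its words are shared with the gene BC021767. Tjp1, the ZO-1 scaffold, was the tested gene with the closest levels in both lines. It had 139.6 to 164 CPM in 4T1 vehicle and 139.9 to 158 CPM in 67NR vehicle (log2 fold change 0.01), and its 95% interval lay within a fold change of 1.5. Its paralog Tjp3 had a ratio of 51.9. The polarity genes Crb3 and Rab25 had ratios of 1998 (358 to 78944, from 1 count in 67NR vehicle) and 228, and Ap1m2, an epithelial sorting adaptor, was at 0.736 ± 0.216 CPM (SD, n = 4) in 4T1 vehicle and was not tested.

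Among the 8 desmosome genes, Pkp3 was the only one with at least 1 TPM in a 67NR vehicle sample, so the other 7 had to differ. Jup, which encodes plakoglobin, had a ratio of 974, Dsp, which encodes desmoplakin, of 849, the cadherin gene Dsg2 of 365 and the cadherin gene Dsc2 of 721 (129 to 28533, from 1 count). Perp, a tetraspan protein of desmosomes, had a ratio of 576, with 7 counts in the 67NR vehicle sample 9 and 0 in the other 3. Among the plakophilins, Pkp2 had a ratio of 107, Pkp1 of 53.1, and Pkp3 of 5.64 (5.34 to 5.97). Pkp3 had 77.5, 77.1, 94.8 and 90.6 CPM in 4T1 vehicle and 13.4, 14.6, 15.0 and 17.4 CPM in 67NR vehicle, and its log2 fold change of 2.46 was the smallest of those called. The plakin genes Ppl and Evpl, which encode periplakin and envoplakin, had ratios of 53.7 and 37.2, and Lad1, which encodes ladinin 1, of 1171 (750 to 1946). Of the 19 Lad1 counts in 67NR vehicle, 17 were in sample 9, and without it the ratio was 8198 (2269 to 67699).

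The membrane serine proteases and their inhibitors were also higher in 4T1. Of the 5, Prss8, Spint1 and Spint2 had at least 1 TPM in no 67NR vehicle sample and had to differ. St14, which encodes matriptase, had a ratio of 211 and its partner protease Prss8, prostasin, of 391. Prss22, a tryptase-like protease, had 430 ± 39.7 CPM (SD, n = 4) in 4T1 vehicle and 0.998 ± 0.229 CPM in 67NR vehicle. The Kunitz inhibitors Spint1 and Spint2, which restrain matriptase and prostasin, had ratios of 536 and 1104. The ETS-family transcription factors Elf3 and Ehf of epithelial cells had ratios of 760 (349 to 2073) and 128 (64.8 to 298).

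**Figure D2:**
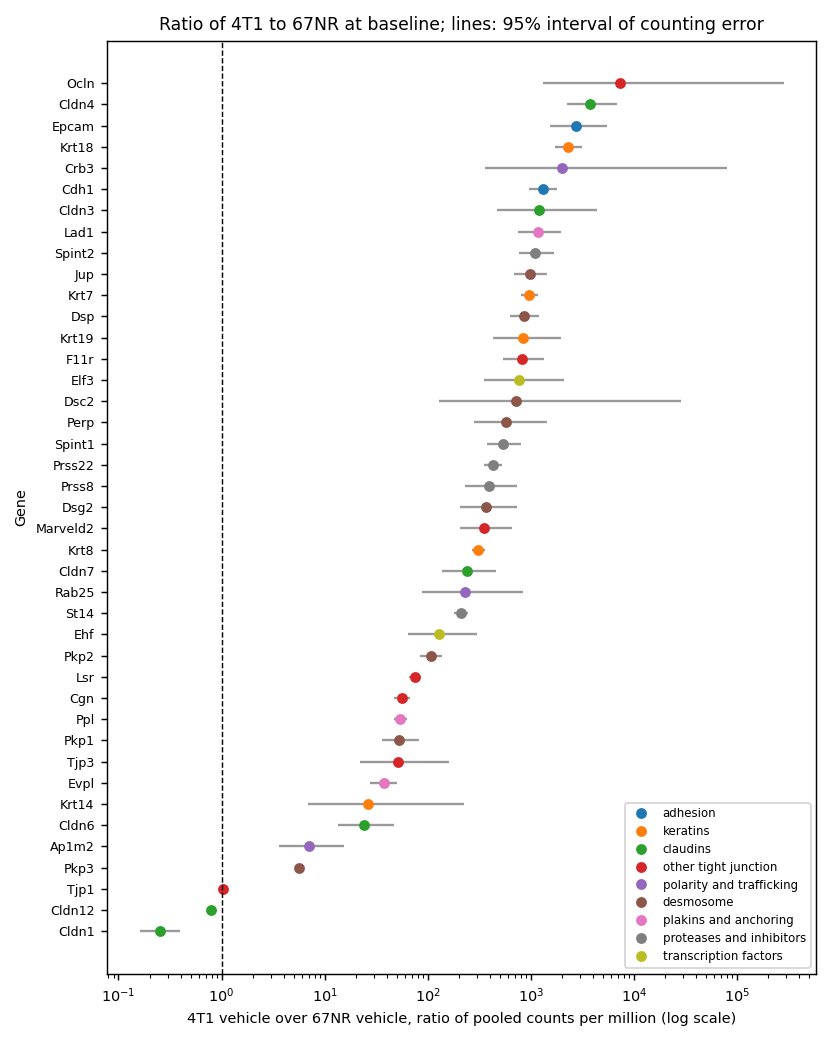
Ratio of 4T1 vehicle to 67NR vehicle for the 41 genes, from pooled CPM on a log axis, with points coloured by role and lines for the 95% interval of counting error. The ratios run from 0.255 for Cldn1 to 7236 for Ocln, and Tjp1 and Cldn12 lie next to the dashed line of equal levels.

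The low counts in 67NR were not spread evenly over the samples. As a share of the 4T1 vehicle mean, Krt18 was at 0.00372%, 0.0%, 0.151% and 0.012% in the 67NR vehicle samples 1, 5, 9 and 13, and Cldn4 at 0.0%, 0.0%, 0.0939% and 0.00785%. Sample 9 was the highest of the 4 for Krt18, Cldn4, Epcam and Cdh1, with 0.0939% to 0.152% of the 4T1 level for each. Without it, a setting chosen after seeing the data, 13 of the 41 ratios were more than 1.5 times as large, and Perp and Dsc2 had no counts left in 67NR vehicle. Beside Cldn4 and Lad1, these were Krt18 at 18944 (7399 to 69528) in place of 2285, Epcam at 7393, Cldn3 at 3517, Elf3 at 3361, Spint2 at 2277, F11r at 2018, Cdh1 at 2007, Jup at 1712, Krt19 at 1662, Dsp at 1316 and Prss8 at 624. Without sample 5 the ratios of Cldn6 (43.9), Cldn7 (548) and Ehf (262) were more than 1.5 times as large and Crb3 had no counts left, and without sample 13 the ratio of Krt7 was (1728), while Ocln and Ap1m2 had no counts left. Without sample 1 there was 0 of either kind. Among the 67NR CIX samples, sample 14 was the highest for all 4 genes, at 0.0802% to 0.102%. In bulk RNA, fewer cells of a type and less RNA per cell cannot be told apart, and the part of carried-over 4T1 material in these counts was not tested. Ppl stood at 1.86% of its 4T1 level, Pkp3 at 17.7% and Tjp1 at 96.4%, over the pooled vehicle samples.

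Several of the genes lie next to each other in the mouse genome (GRCm38). Krt8 (chr15:101996698-102004482, minus strand) and Krt18 (chr15:102028180-102032027, plus strand) are 23.7 kb apart. Cldn4 (chr5:134945119-134946934, minus strand) and Cldn3 (chr5:134986214-134987472, plus strand) are 39.3 kb apart, and Ocln (chr13:100496507-100552718) and Marveld2 (chr13:100595957-100616971), both on the minus strand, 43.2 kb. Lad1 and Pkp1 on chromosome 1 are 38.1 kb apart, and Krt19 and Krt14 on chromosome 11 are 54.5 kb apart. Within the pair Krt19 and Krt14, Krt19 was at 70.3 CPM and Krt14 at 0.543 CPM in 4T1 vehicle.

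Because most of the genes were far lower in 67NR than in 4T1, their promoters were read for short motifs. RefSeq promoter windows (GRCm38.p6) matched 27 of the 41 genes. Cdh1, Dsc2, Dsg2, Ehf, Evpl, Krt19, Perp, Pkp1, Pkp2, Pkp3, Ppl, Prss22, Prss8 and St14 had no entry. The 250 bases before the start of each gene were searched on both strands for the E-box CACCTG, which reads CAGGTG on the opposite strand and to which ZEB and SNAI repressors bind, for AACNNGTT, a core of Grainyhead sites, and for AGGAAG, a core of ETS sites, whose reverse complement CTTCCT was counted with it. Each motif was counted on its own, whether or not its match shared bases with another. The E-box was in 14 of the 27 windows (51.9%) and in 16.5% of all 16810 promoter windows. AACNNGTT was in 2 of 27 (7.41%) and in 3.74% of all, and AGGAAG in 6 of 27 (22.2%) and in 28.2% of all. The median GC content was 60.4% in the 27 windows and 55.6% in all. These are matches of letters, not sites.

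The windows below are 5′ to 3′ on the strand of the gene and end at the base before its start, with the E-box in capitals. The first 6 were picked because they hold the E-box and belong to genes called higher in 4T1, and the last 2 because Tjp1 and Cldn12 were at like levels in both lines and have no match.
Epcam (chr17:87635729-87635978, plus strand): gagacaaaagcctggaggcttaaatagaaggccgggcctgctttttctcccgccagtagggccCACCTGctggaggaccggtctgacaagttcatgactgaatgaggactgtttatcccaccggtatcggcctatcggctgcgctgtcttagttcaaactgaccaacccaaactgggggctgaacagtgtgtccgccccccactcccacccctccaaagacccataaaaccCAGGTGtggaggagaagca
Cldn4 (chr5:134946935-134947184, minus strand): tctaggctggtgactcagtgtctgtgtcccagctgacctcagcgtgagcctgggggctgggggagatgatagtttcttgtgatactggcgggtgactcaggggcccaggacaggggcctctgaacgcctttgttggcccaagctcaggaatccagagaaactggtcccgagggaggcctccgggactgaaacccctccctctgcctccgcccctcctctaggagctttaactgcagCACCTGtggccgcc
Krt8 (chr15:102004343-102004592, minus strand): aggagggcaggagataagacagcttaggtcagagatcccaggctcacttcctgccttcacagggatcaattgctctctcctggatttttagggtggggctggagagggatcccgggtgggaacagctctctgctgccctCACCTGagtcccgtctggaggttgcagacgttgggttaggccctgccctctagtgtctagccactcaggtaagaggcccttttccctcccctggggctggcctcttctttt
Crb3 (chr17:57061951-57062200, plus strand): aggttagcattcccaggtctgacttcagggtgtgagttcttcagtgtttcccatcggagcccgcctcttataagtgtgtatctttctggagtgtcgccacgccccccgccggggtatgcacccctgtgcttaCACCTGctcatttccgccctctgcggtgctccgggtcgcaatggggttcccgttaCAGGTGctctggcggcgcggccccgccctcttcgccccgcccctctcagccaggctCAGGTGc
Spint2 (chr7:29281978-29282227, minus strand): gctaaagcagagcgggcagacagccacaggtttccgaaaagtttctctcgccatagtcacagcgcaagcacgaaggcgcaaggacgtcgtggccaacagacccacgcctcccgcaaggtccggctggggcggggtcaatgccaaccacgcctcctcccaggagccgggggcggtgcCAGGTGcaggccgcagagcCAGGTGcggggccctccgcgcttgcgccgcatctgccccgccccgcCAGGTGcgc
Lsr (chr7:30973470-30973719, minus strand): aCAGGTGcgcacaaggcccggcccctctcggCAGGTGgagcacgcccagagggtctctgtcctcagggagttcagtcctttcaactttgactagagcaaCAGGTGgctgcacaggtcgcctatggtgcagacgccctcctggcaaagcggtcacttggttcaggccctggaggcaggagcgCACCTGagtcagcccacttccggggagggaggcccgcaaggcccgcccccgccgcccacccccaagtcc
Tjp1 (chr7:65371245-65371494, minus strand): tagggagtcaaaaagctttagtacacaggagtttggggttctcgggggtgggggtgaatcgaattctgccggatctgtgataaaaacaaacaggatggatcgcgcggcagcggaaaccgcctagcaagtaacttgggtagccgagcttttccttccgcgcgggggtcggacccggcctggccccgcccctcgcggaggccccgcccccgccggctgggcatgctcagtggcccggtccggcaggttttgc
Cldn12 (chr5:5514977-5515226, minus strand): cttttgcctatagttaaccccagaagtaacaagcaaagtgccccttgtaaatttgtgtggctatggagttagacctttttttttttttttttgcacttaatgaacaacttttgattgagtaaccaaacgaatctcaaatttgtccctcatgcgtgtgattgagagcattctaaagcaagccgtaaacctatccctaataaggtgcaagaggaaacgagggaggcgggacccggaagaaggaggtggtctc

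Epcam had matches beginning 187 and 19 bases before the start, Cldn4 at 14 bases and Krt8 at 111 bases. Crb3 and Spint2 had 3 matches each and Lsr had 4, as did Ap1m2, which was barely expressed in either line. Of the genes with a window, Cldn3, Cldn7, Ocln, Marveld2, Dsp, Jup, Lad1, Cgn and Spint1 were called higher in 4T1 and had no such match in these 250 bases. The RefSeq starts used for Tjp1, Crb3, Krt14 and Krt7 lie more than 200 bases from the gene start in the GENCODE annotation, by 156537 bases for Tjp1.

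Genes outside the list that act in the same structures gave a mixed picture. Of 46 other junction genes, 45 were in the table and 26 were tested, of which 14 were higher and 7 lower in 4T1, where 23.7% and 22.8% of all genes tested were called. Of the 14, 6 had at least 1 TPM in no 67NR vehicle sample and had to differ. The largest differences among those called were for the claudin gene Cldn23 (log2 fold change 11.7, limma adjusted p = 7.31e-07), for Cxadr, a virus receptor of tight junctions (9.52), and for Cgnl1, a paralog of cingulin (8.96). Of 17 other keratins 3 were tested and 0 were called, with 2 at an unadjusted p below 0.05, where 73.2% of all genes tested were. These were Krt13 and Krt10. Krt13, a keratin of internal stratified epithelia, was at 26.7 ± 22.5 CPM in 4T1 vehicle and 0.0408 ± 0.0325 CPM in 67NR vehicle (SD, n = 4, log2 fold change 8.46, limma adjusted p = 0.00334, groups apart). It had at least 1 TPM in no 67NR vehicle sample and had to differ. Krt10 had a log2 fold change of -0.76 (limma adjusted p = 0.011, groups apart). Among 25 regulators of the epithelial state, 10 of the 20 tested were higher in 4T1 and 7 were lower, of which 7 and 4 had at least 1 TPM in no vehicle sample of the other line. Among those called were the splicing factor genes Esrp2 (log2 fold change 10.39) and Esrp1 (9.77). Cldn23, Esrp1 and Esrp2 each had a single 67NR vehicle library above 0, so their fitted fold changes depend on the prior count. The repressors of epithelial genes on this list were not alike. Zeb1 was at 0.534 CPM in 4T1 vehicle and 56.1 CPM in 67NR vehicle, and Snai2 at 0.063 and 23.2 CPM. Both were called lower in 4T1, but had at least 1 TPM in no 4T1 vehicle sample and had to differ. Zeb2 was at 47.9 ± 40.0 and 196 ± 225 CPM (SD, n = 4) with overlapping groups (log2 fold change -2.02, limma adjusted p = 0.0543). Its 67NR mean was carried by sample 13 at 533.5 CPM, and the other 3 samples were at 73.9 to 98.3 CPM, with a mean of 83.5 CPM. Snai1 was at 12.6 ± 0.58 and 9.41 ± 1.62 CPM, with all 4T1 vehicle samples above the 67NR vehicle samples, and did not pass (0.40, adjusted p = 0.0248).

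The second comparison asked whether CIX changed this set in 4T1 cells. The summed level of the list did not separate the groups, and a few genes changed in opposite directions. The summed level was 5706.9 to 6050.0 TPM in vehicle and 5611.2 to 5918.7 TPM with CIX, and these ranges overlapped. In limma-voom, 7 of 38 tested genes passed an adjusted p below 0.001. Tjp3, Perp, Dsg2 and Ppl rose, and Cldn6, Prss22 and Epcam fell. Over all 11659 tested genes, 5.35% were called higher and 3.99% lower. With library size as the only scaling the 7 became 6, with 2 higher and 4 lower. The groups did not overlap for 25 of all 41 genes, 15 higher and 10 lower with CIX, and for 23 of the 38 tested, against 39.7% of all genes tested. The median log2 fold change was 0.06 over the 38 genes and -0.007 over all genes tested. These calls share the 4T1 vehicle samples with the comparison of the lines.

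Perp, the desmosomal tetraspan gene, had 51.8, 36.2, 39.3 and 39.5 CPM in vehicle and 114, 105, 94.8 and 123 CPM with CIX. All CIX samples were above all vehicle samples, a log2 fold change of 1.34 ± 0.14 (SE, limma adjusted p = 1.32e-04). Dsg2, the desmoglein of simple epithelia, had 38.1, 34.7, 45.0 and 48.4 CPM in vehicle and 73.1, 94.9, 107 and 115 CPM with CIX, again without overlap (log2 fold change 1.17 ± 0.16, adjusted p = 5.91e-04). Ppl, the periplakin gene, had 92.3, 95.1, 110.0 and 129 CPM in vehicle and 172, 239.6, 212 and 205 CPM with CIX (0.91 ± 0.14, adjusted p = 8.96e-04). These were 3 of the 11 desmosome, plakin and anchoring genes, of which 0 were called lower, where 5.35% of all genes tested were called higher and 39.7% had groups apart. Among the other 8, the groups also lay apart for Dsc2 (log2 fold change 0.89, adjusted p = 0.00525), Evpl (0.69, adjusted p = 0.00219) and Pkp3 (0.24, adjusted p = 0.0749) with higher values under CIX, but these did not pass the threshold. Jup had a log2 fold change of 0.05 (95% interval -0.32 to 0.41), Pkp2 of 0.06 (-0.19 to 0.31), Pkp1 of -0.27 (-0.64 to 0.11) and Dsp of 0.28 (-0.31 to 0.87).

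Tjp3, the ZO-3 scaffold gene, rose from 2.76, 2.79, 2.68 and 2.53 CPM to 11.5, 9.51, 6.19 and 7.62 CPM, a log2 fold change of 1.59 ± 0.24 (SE, limma adjusted p = 9.47e-04). The lowest CIX sample lay above the highest vehicle sample. Tjp1 had a log2 fold change of 0.23 (adjusted p = 0.102). Another 3 tight junction genes had lower values with CIX and groups apart without passing the threshold, namely Ocln (-0.72, adjusted p = 0.00577), Lsr (-0.44, adjusted p = 0.0067) and Marveld2 (-0.41, adjusted p = 0.0145). F11r (0.35) and Cgn (0.42) had higher values, with adjusted p of 0.0385 and 0.0394.

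Epcam, the adhesion molecule, fell. Its 317, 307, 313 and 311 CPM in vehicle stood against 185, 176, 187 and 204 CPM with CIX, without overlap, and it decreased by 0.78 on the log2 scale (SE 0.08, limma adjusted p = 1.27e-04). Cdh1 had 469.7 to 528 CPM with CIX, which overlapped its vehicle values (log2 fold change -0.29, 95% interval -0.54 to -0.04, adjusted p = 0.0592). Prss22 had 479, 430.4, 381 and 430.3 CPM in vehicle and 165, 187, 182 and 119.7 CPM with CIX, and fell by 1.46 on the log2 scale (SE 0.14, adjusted p = 1.29e-04). It was the largest drop in CPM among the called genes. Of the other proteases and inhibitors, St14 had a log2 fold change of -0.04 (-0.21 to 0.13) and Spint2 of 0.06 (-0.13 to 0.24), both within a fold change of 1.5, while Prss8 (-0.35, adjusted p = 0.0116) and Spint1 (-0.44, adjusted p = 0.00933) had lower values with groups apart.

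Of the 5 claudins tested, Cldn6 alone was called. It had 3.3, 2.79, 2.85 and 2.93 CPM in vehicle and 1.1, 1.38, 1.1 and 0.77 CPM with CIX, and fell by 1.51 on the log2 scale (SE 0.23, limma adjusted p = 9.13e-04). Its counts were 65 to 80 per vehicle sample and 19 to 32 per CIX sample. Cldn7 was close to the threshold, at 29.7 ± 4.37 CPM in vehicle and 16.7 ± 1.61 CPM with CIX (SD, n = 4, log2 fold change -0.87, adjusted p = 0.00131). Cldn12 had higher values with CIX (40.2 to 100.2 CPM against 21.2 to 29.8 CPM, log2 fold change 1.14, adjusted p = 0.00769), with the CIX sample 12 far above the other 3. Cldn4 (-0.002 on the log2 scale, 95% interval -0.37 to 0.36) and Cldn3 (-0.08, -0.40 to 0.24) had intervals within a fold change of 1.5. Cldn1 was not tested, and had 4 to 9 counts per vehicle sample and 23 to 24 per CIX sample.

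Among the keratins 4 were tested and 0 were called, with 3 at an unadjusted p below 0.05, where 51.2% of all genes tested were. DESeq2 called Krt19 and edgeR called none of them. All 4 had higher mean values with CIX. Krt19 had 58.4 to 87.0 CPM in vehicle and 99.996 to 133 CPM with CIX (log2 fold change 0.68, adjusted p = 0.00373), and Krt7 had 963 to 1278 CPM and 1376 to 1534 CPM (0.45, adjusted p = 0.00525). Krt18 had a log2 fold change of 0.14 (adjusted p = 0.106) and Krt8 of 0.43 (adjusted p = 0.0533). The untested Krt14 had 9 to 15 counts per vehicle sample and 30 to 112 per CIX sample. Neither transcription factor gene passed the threshold, with Elf3 at 47.2 ± 5.03 CPM in vehicle and 79.0 ± 8.69 CPM with CIX (SD, n = 4, log2 fold change 0.70, adjusted p = 0.00163), and Ehf at 10.6 ± 4.15 and 5.83 ± 1.72 CPM (-0.90, adjusted p = 0.0423). Crb3 (-0.32, adjusted p = 0.0975) and Rab25 (-0.44, adjusted p = 0.164) overlapped between the groups, and Ap1m2 overlapped and was not tested. Lad1 had a log2 fold change of 0.13 (-0.08 to 0.33).

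**Figure D3:**
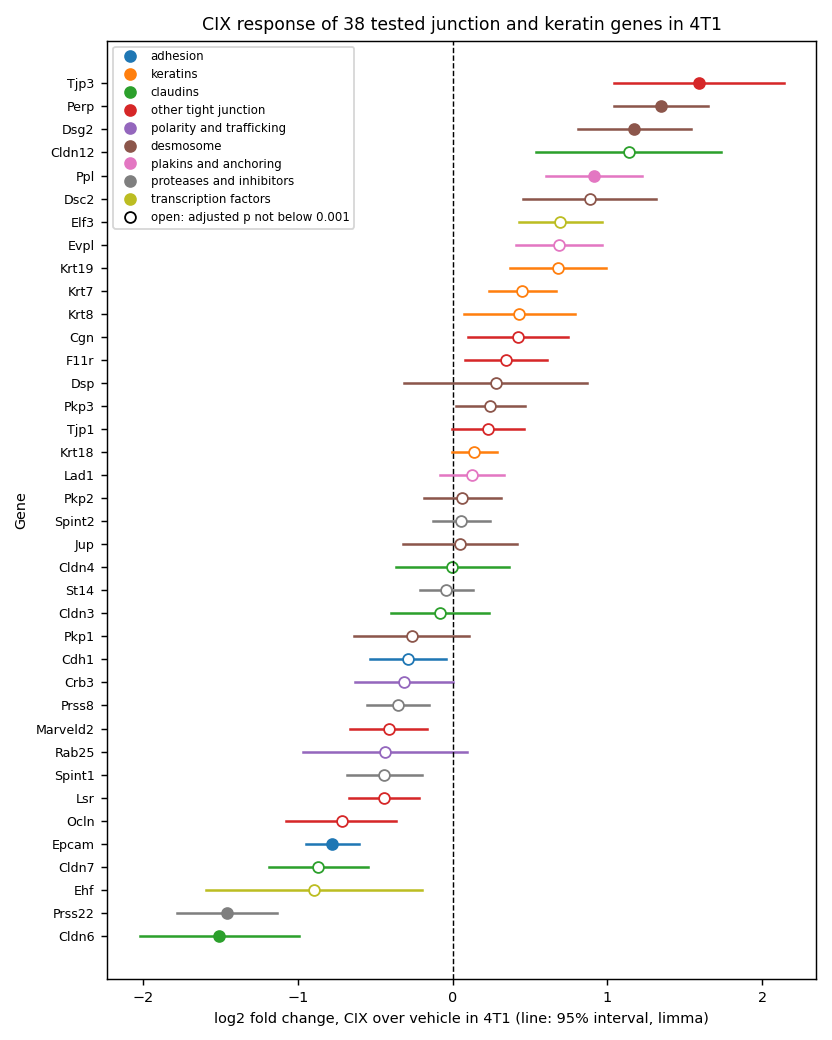
log2 fold change of CIX over vehicle in 4T1 for the 38 tested genes, ordered by size, with 95% intervals from limma and filled points for an adjusted p below 0.001. The filled points are Tjp3, Perp, Dsg2 and Ppl on the right and Epcam, Prss22 and Cldn6 on the left, and the interval of 12 genes lies within a fold change of 1.5.

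Several of these calls did not hold under other settings. Ppl did not pass with edgeR (adjusted p = 0.00101), with library size as the only scaling (0.00135) or with limma on log2(TPM + 1) (0.00251). Dsg2 did not pass with limma on log2(TPM + 1) (adjusted p = 0.00112), Tjp3 with library size only (0.00135) and Cldn6 without a filter on low values (0.00212). Cldn7 passed with library size only (9.02e-04) and with limma on log2(TPM + 1) (5.01e-04). Epcam, Perp and Prss22 passed the threshold in all 8 fits that left out 1 sample. Dsg2 and Ppl passed it only without the CIX sample 4, Tjp3 only without the CIX sample 12, and Cldn6 in none of the 8, where its adjusted p was 0.00202 to 0.00346. When fold changes were tested against 1.5-fold rather than 0, 0 of the 38 passed, and in 4T1 as a whole 83 of 11659 genes did.

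The summed level of the mesenchymal markers was 1569.8 to 1937.2 TPM in 4T1 vehicle and 2863.4 to 3346.4 TPM with CIX, and 5 of the 12 were tested. All 5 had higher values with CIX, with a median log2 fold change of 0.92, and Vim (1.24), Sparc (1.04) and Twist1 (0.92) were called, where 5.35% of all genes tested were called higher. Without Vim the sums were 551.5 to 843.0 TPM in vehicle and 811.7 to 988.9 TPM with CIX, which overlapped. The 8 luminal markers, all of them among the 41 genes, summed to 2520.5 to 2671.6 TPM in vehicle and 2484.6 to 2591.8 TPM with CIX. The 7 basal markers summed to 0.504 to 0.947 TPM in vehicle and 1.36 to 4.35 TPM with CIX, but this was carried by Krt14, itself one of the 41 genes, and without it the sums were 0.152 to 0.408 and 0.0852 to 0.332 TPM. The part of these markers in the junction results was not tested.

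**Figure D4:**
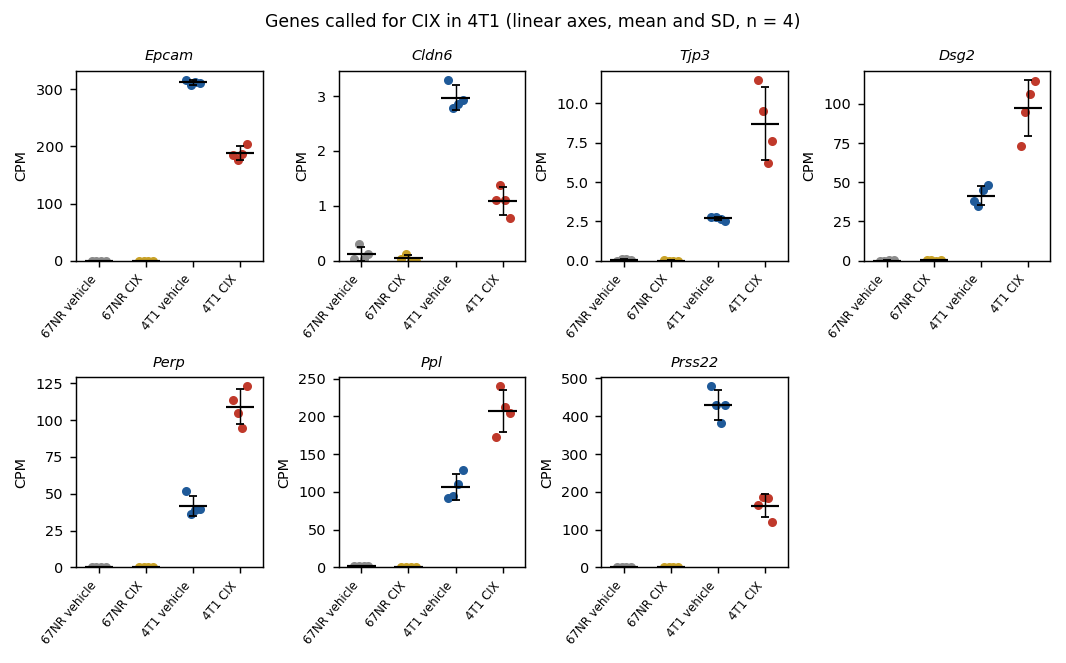
CPM of the 7 genes called for CIX in 4T1, shown in all 4 groups on linear axes, with 1 point per sample, a line for the mean and bars for the SD (n = 4). In each panel the 4T1 vehicle and 4T1 CIX points do not overlap and the 67NR points lie near 0.

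Beyond the list, 2 of 26 other junction genes rose with CIX in 4T1 and 1 fell, a share near the 9.34% of all tested genes called in either direction. Scrib, a polarity scaffold, rose from 26.3 ± 6.44 to 97.3 ± 14.0 CPM (SD, n = 4, limma adjusted p = 1.63e-04), and Ctnna1, which links cadherins to actin, from 311 to 475 CPM (adjusted p = 6.28e-04). Cldn23 fell from 95.4 ± 21.4 to 24.2 ± 7.35 CPM (adjusted p = 2.53e-04). Of 3 other keratins tested, 0 were called and 0 had an unadjusted p below 0.05. Of 16 regulators tested, Twist1 (log2 fold change 0.92) and Esrp1 (0.76) rose and Foxa1, a luminal transcription factor, fell (by 1.78).

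The third comparison asked the same of 67NR. Only Cldn12, Tjp1, Lsr, Pkp3, St14 and Prss22 passed the TPM filter, which depends on transcript length as well as reads. Krt8 did not pass it, with 20 to 58 counts per 67NR sample, against 19 to 52 for Prss22. Of the 6 tested, 0 were called, while 0.182% of 11560 tested genes were called higher and 0.208% lower. Prss22 alone had an unadjusted p below 0.05 (log2 fold change 0.64, limma adjusted p = 0.114), and edgeR and DESeq2 also called 0. Pkp3 had 13.4 to 17.4 CPM in vehicle and 15.2 to 19.7 CPM with CIX, and Tjp1 139.9 to 158 and 120.4 to 165 CPM. The groups overlapped for these 6 genes, where 23.3% of all genes tested lay apart. Tjp1 and Pkp3 had intervals within a fold change of 1.5, of -0.32 to 0.13 and -0.06 to 0.52 on the log2 scale. For most of the other genes a change in 67NR was not detectable at this depth, since they had few counts. Of the other lists, 0 of 18 junction genes, 0 of 2 keratins and 0 of 13 regulators tested were called by limma, with 6, 2 and 7 at an unadjusted p below 0.05, where 32.8% of all genes tested were. Of the mesenchymal markers, 10 were tested in 67NR and 0 were called, with 5 higher and 5 lower, a median log2 fold change of -0.01 and 5 at an unadjusted p below 0.05. Vim had 3615.4 to 4596.3 TPM in vehicle and 6073.6 to 6904.4 TPM with CIX (log2 fold change 0.58, limma adjusted p = 0.00133), and the sum of the other markers was 2054.1 to 2208.2 and 1883.3 to 2069.7 TPM. The part of these markers in the 67NR values was not tested.

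Among the 35 genes not tested in 67NR, the groups did not overlap for Cldn1, Pkp1 and Ppl, a smaller share than the 23.3% of the tested genes, so the count is no result about the list. Cldn1 had 1.27, 0.931, 1.46 and 0.727 CPM in vehicle and 0.386, 0.248, 0.504 and 0.128 CPM with CIX. Ppl had 2.14, 2.26, 1.89 and 1.67 CPM in vehicle and 0.888, 0.743, 0.32 and 0.897 CPM with CIX. Pkp1, the plakophilin of stratified epithelia, had 0.278, 0.266, 0.433 and 0.0428 CPM in vehicle and 0.888, 0.454, 1.05 and 0.684 CPM with CIX. The CIX samples lay below the vehicle samples for Cldn1 and Ppl and above them for Pkp1 (2-sided exact permutation test, p = 0.0286 for each, the smallest possible, not adjusted over the 41 genes).

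**Figure D5:**
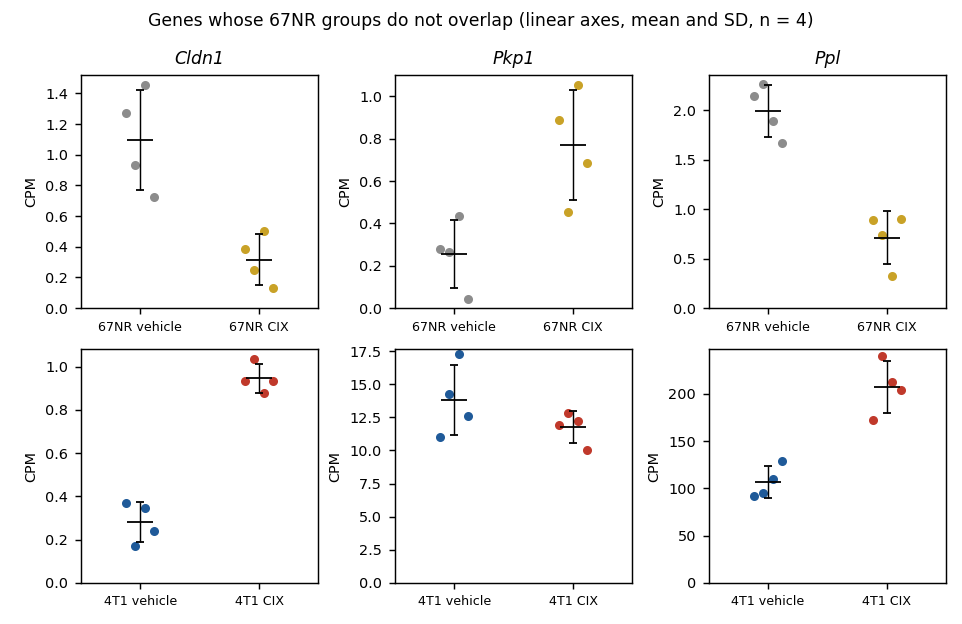
CPM of Cldn1, Pkp1 and Ppl, with 67NR in the upper panels and 4T1 in the lower panels, on linear axes that differ between panels, with 1 point per sample, a line for the mean and bars for the SD (n = 4). For Cldn1 and Ppl the CIX points lie below the vehicle points in 67NR and above them in 4T1.

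The last comparison tested whether the CIX response differed between the lines. Of 38 genes tested, 1 passed, where 4.81% of 12605 tested genes had a more positive response in 4T1 at the threshold and 3.05% a more negative one. Ppl rose in 4T1, its mean in 67NR was 1.99 CPM in vehicle and 0.712 CPM with CIX, and the difference of the responses was 2.46 ± 0.44 on the log2 scale (SE, limma adjusted p = 7.37e-04). Its 67NR counts were 39 to 54 per vehicle sample and 7 to 23 per CIX sample. This call was lost without any of the 8 67NR samples, each left out in turn, and also without the 4T1 vehicle samples 7 and 11 and the 4T1 CIX samples 12 and 16, with adjusted p up to 0.00221. Prss22 had a difference of -2.09 ± 0.44 (adjusted p = 0.00214), and without the 4T1 CIX sample 16 it passed and Ppl did not. Prss22 also passed with edgeR (adjusted p = 4.66e-05), DESeq2 (7.28e-11) and limma on log2(TPM + 1) (1.48e-05). Its adjusted p was up to 0.0382 under the other settings. Tjp3 (2.74, adjusted p = 0.0166) and Pkp1 (-1.996, adjusted p = 0.0151) did not pass, and rested on 0 to 2 and 1 to 23 counts per sample in 67NR. Of the genes tested within 67NR, Cldn12 had a difference of 1.07 (adjusted p = 0.109), Tjp1 of 0.32 (0.103), Lsr of -0.21 (0.59), Pkp3 of 0.01 (0.957) and St14 of -0.08 (0.907). Krt8 and Cgn, with 20 to 58 and 6 to 67 counts per 67NR sample, were tested and did not pass. For most of the rest the 67NR counts were too few for a difference to be read. Of the other lists, 1 of 26 junction genes, 1 of 3 keratins and 1 of 20 regulators passed, namely Scrib (2.00), the keratin gene Krt80 (1.57) and Twist1 (1.04). Of the mesenchymal markers, 10 were tested and 3 passed with a more positive response in 4T1, where 4.81% of all genes tested did. The 10 had 7 positive and 3 negative differences, with a median of 0.35. Their part in the junction results was not tested.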

How the data were processed

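Poly(A) RNA was sequenced as stranded single-end reads on a NextSeq 500. The deposited table holds estimated counts per gene that the authors made by quasi-alignment of the reads to Ensembl mouse transcripts with salmon (version 0.12 in the submitters' processing notes) and summed to genes with tximport. The study's methods give GRCm38, a label lists GRCh38, and the gene IDs are mouse IDs. How tximport scaled the counts is not given in the sources used here. Salmon can split reads between similar genes.

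The counts were rounded, scaled by TMM in edgeR 4.0.16 and tested with limma-voom 3.58.1 in R 4.3.3, with Benjamini-Hochberg adjustment over all genes tested and a threshold of 0.001, as in the study. TPM was approximated from the mean transcript length of each gene. Genes with TPM below 1 in more than 3 of the 8 samples were left out of the CIX comparisons. The interaction kept genes that passed in either line. The baseline comparison kept genes with at least 1 TPM in 4 of 8 samples. DESeq2 1.42.0, edgeR's quasi-likelihood test and other settings were run as alternatives. Single genes were also tested by exact permutation on log2(CPM + 0.5). All 41 genes were named. From the lists of other junction genes, other keratins and regulators, the 3 called genes with the largest change per comparison were named, except 1 that is not reported here, and Zeb1, Zeb2, Snai1, Snai2, Krt13, Krt10, the mesenchymal markers named and the promoter windows printed were chosen after their values were seen. The genes and lists were chosen with earlier results of these data known. The model fits were also run on simulated counts with known changes and a spread setting that was the same for every gene. This checks the code and lends these results no support.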

Additional observations from a re-analysis of the deposited data

Results flagged for a closer look

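Ppl was noted because its CIX response differed between the lines in the interaction test, by 2.46 on the log2 scale (limma adjusted p = 7.37e-04). Its mean went from 107 to 207 CPM in 4T1 and from 1.99 to 0.712 CPM in 67NR. Cldn1 was noted because its CIX and vehicle samples did not overlap in either line and lay in opposite directions, with every CIX sample above every vehicle sample in 4T1 and below in 67NR, and with a ratio of CIX to vehicle means of 3.35 in 4T1 and 0.288 in 67NR. This difference was not tested in the main fit, since Cldn1 was too low to enter it.

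Of 100 gene groups with every sample above 10 counts, 7 had a sample far from the other 3 by Dixon's criterion, and chance alone gives about 1 in 20. Krt7 was 1376 CPM in the 4T1 CIX sample 16, below 1527 to 1534 CPM in the others, and 1278 CPM in the 4T1 vehicle sample 3, above 963 to 1009 CPM. Spint2 was 345 CPM in the same vehicle sample 3 (others 310.1 to 315). Cldn7 was 19.1 CPM in the 4T1 CIX sample 4 (others 15.6 to 16.1), St14 was 377 CPM in the 4T1 CIX sample 12 (others 351 to 353), and Prss8 was 39.0 CPM in the 4T1 CIX sample 16 (others 43.5 to 44.1). In 67NR vehicle, sample 1 had 0.595 CPM of St14 against 1.97 to 2.31 in the others.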

How the results depend on the processing

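The number of genes called between the lines was 36 in all 8 fits that left out 1 sample, which says little because 29 of the 38 had to differ. Over all genes the calls were 5818, and 4897 to 5813 with a sample left out. The number for the list was 35 to 37 under every other alternative except the study's filter, which drops genes present in 1 line only and gave 7 of 9 tested. Without a filter 41 genes were tested and 37 called. DESeq2 gave 35 because it gave Krt18 no adjusted p. The 7 calls for CIX in 4T1 became 6 with edgeR, with library size only, without a filter and with limma on log2(TPM + 1), 16 with DESeq2, 22 at an adjusted p of 0.05, 12 when all 16 samples were fitted together, 0 against a fold change of 1.5, and 3 to 5 when a sample was left out, where fewer samples enter. The count fell by more than 1.5 times without any 4T1 sample except the CIX sample 4, to 4 without the vehicle sample 3, where Krt7 was newly called (adjusted p = 9.86e-04) and 3 of the 7 passed, to 4 of the 7 without the CIX sample 12 and to 3 without the vehicle samples 7, 11 or 15 or the CIX samples 8 or 16. In 67NR the count stayed at 0 throughout. The 1 gene whose response differed between the lines became 2 with edgeR, 3 with DESeq2, 2 without a filter, 4 at an adjusted p of 0.05, 7 with limma on log2(TPM + 1), 0 against a fold change of 1.5, and 0 to 1 when a sample was left out. The causes were not tested. On log2(TPM + 1) the share of calls over all genes that were higher was 45.7% against 57.3% for CIX in 4T1, and 47.3% against 61.2% for the difference of the responses. The median level of the list in 4T1 vehicle was 48.7 TPM with mean transcript length and 55.9 TPM with the union of exons. With library size as the only scaling, a setting chosen after seeing the data, 23 of 41 genes lay apart for CIX in 4T1, against 25.

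No called gene changed sign. Among uncalled values, that for CIX in 4T1 changed sign for Cldn4 (0.012 with edgeR, 0.003 with DESeq2, 0.059 without a filter, 0.005 with all samples, -0.147 to 0.083 with a sample left out), Jup (-0.014 with library size only, -0.03 on log2(TPM + 1), -0.085 to 0.178 with a sample left out), Spint2 (-0.004 and -0.018 under the same 2 settings), Pkp2 (-0.014 on log2(TPM + 1)), St14 (0.021 without a filter) and Cldn3 (-0.151 to 0.011 with a sample left out). In 67NR it changed for St14 (-0.106 with edgeR, -0.025 on log2(TPM + 1), -0.425 to 0.237 with a sample left out) and Cldn12 (-0.209 to 0.349). The difference of the responses changed for St14 (0.057 with edgeR, 0.058 with DESeq2, -0.272 to 0.374 with a sample left out) and Pkp3 (-0.031 with library size only, -0.059 on log2(TPM + 1), -0.071 to 0.072), and the difference between the lines for Tjp1 (-0.027 to 0.084). The labels pair no samples, since the groups share no replicate numbers. In a fit chosen after seeing the data, the sample numbers 1 to 4, 5 to 8, 9 to 12 and 13 to 16 were each taken as a replicate block, which the labels do not state. The deviations of the samples in a block correlated at 0.41, 0.05, 0.32 and 0.21 in 4T1, at -0.05 to 0.10 in 67NR and at -0.27 to 0.20 between the lines. With this block the calls were 36 between the lines, 5 for CIX in 4T1, where Ppl (adjusted p = 0.0012) and Cldn6 (0.00273) did not pass and the uncalled Krt8 had an adjusted p of 0.00219 in place of 0.0533, 0 in 67NR and 0 for the difference of the responses, where Ppl had an adjusted p of 0.00262. The uncalled St14 changed sign, to -0.062 in 67NR and 0.007 for the difference.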
